A study of Rattus norvegicus with 6 samples.

Results

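Histone lysine demethylases remove methyl groups from lysines of histone tails, and the results below follow 10 genes that encode them: Kdm1a, Kdm2a, Kdm2b, Kdm3a, Kdm4a, Kdm4b, Kdm4c, Kdm5a, Kdm5b and Kdm6b. They were taken by symbol from a deposited table of 30560 gene rows. Each had 1 row, and all 10 passed the filter on low counts. The RNA came from wild-type rat mesenchymal stem cells (stromal cells of multiple potency, able to give rise to osteoblasts, adipocytes and chondrocytes). Both groups carried the same background treatment: 24 hours of 200 nM doxorubicin, which breaks DNA and was given to drive the cells into senescence, and then 6 days in fresh medium. During those days the Dox group (3 poly(A) RNA-seq libraries) received a vehicle and the SMNV group (3 libraries) received 100 µg/ml of a preparation that the labels call SMNV without expanding the name. All 6 libraries came from cells given doxorubicin, and none from cells without it. Each value thus sets doxorubicin-treated cells with the preparation against doxorubicin-treated cells without the preparation. The labels do not say whether the 3 libraries of a group came from separate cultures or animals, and p-values measure only the spread between these libraries, which may be technical.

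Demethylases fall into 2 chemical classes. Kdm1a encodes LSD1, a flavin-dependent amine oxidase that works within the CoREST repressor complex, and the other 9 genes encode JmjC enzymes, which need iron, oxygen and 2-oxoglutarate. Their substrates differ: methylated H3K4 at promoters is removed by the LSD1 and KDM5 proteins, H3K9 by the KDM3 and KDM4 proteins, H3K36 by the KDM2 and KDM4 proteins and H3K27 by the KDM6 proteins. In human mesenchymal stem cells KDM4B and KDM6B are known to promote bone formation over fat formation, and in several cell types KDM6B and KDM2B act on the locus of the p16 cell cycle inhibitor in opposite directions.

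The libraries held 18640909 to 21506967 estimated counts, and the 10 genes had 344 to 3456 estimated counts each per library. Libraries of the same group had Pearson correlations of 0.993 to 0.996 across tested genes on the log2 CPM scale, and libraries of different groups 0.953 to 0.975. Summed TPM (a level per transcript length, scaled to a fixed total in each library) of 8 stromal markers, none at 0, was 16260 to 19270 in Dox and 27030 to 33840 in SMNV. Col1a1, Col1a2 and Vim made up most of this sum. Of the 8 markers 5 rose, Cd44 fell (log2 fold change -1.08 ± 0.06, edgeR adjusted p = 4.77e-09), and Thy1 and Nt5e did not pass. Of 6 haematopoietic markers 4 had no count in any library (Ptprc, Cd34, Itgam and Cd3e), and the sum over all 6 was 4.99 to 5.90 TPM in Dox and 4.88 to 6.18 in SMNV. Of 5 endothelial markers Cdh5 and Kdr had none, with sums of 0.58 to 1.20 and 0.50 to 0.96 TPM. The 4 smooth muscle markers, none at 0, summed to 1833 to 2166 TPM in Dox and 1669 to 1710 in SMNV. The 10 most abundant genes took 14.4% to 15.2% of the counts in Dox and 17.8% to 19.4% in SMNV, and a 28S ribosomal RNA row stood at 1.25 to 5.93 and 31.3 to 124 CPM (counts scaled to the library total, here without TMM scaling). The part of these library measures in the results was not tested.

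Kdm4b and Kdm6b were 2.04-fold and 1.98-fold higher in SMNV, while Kdm5a, Kdm4c and Kdm5b were at 0.631, 0.690 and 0.773 of their Dox level. Kdm4a rose by a smaller amount. Kdm2b was slightly higher, and Kdm1a, Kdm2a and Kdm3a slightly lower, by changes that lay near the threshold of the test. By edgeR's quasi-likelihood test over all 12614 tested genes (adjusted p below 0.05), 4 of the 10 genes rose and 6 fell. This has to be read against a background in which 60.4% of all tested genes changed, 30.5% higher and 29.9% lower. Of the changed genes 50.45% were higher, a share that was 39.8% on TPM without a scaling factor. Changes above 1.5-fold were found for 3 of the 10 genes (background 24.7%), namely the risers Kdm4b and Kdm6b (background 18.5%) and the faller Kdm5a (background 6.25%). For all 10 genes the 3 libraries of one group lay wholly above or below the other 3, in CPM (background 66.9%) as in TPM (background 67.3%). The median log2 fold change was -0.17 for the 10 genes and -0.01 for all tested genes. In bulk RNA a change in the number of cells of a type cannot be told apart from a change in RNA per cell.

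**Figure D1:**
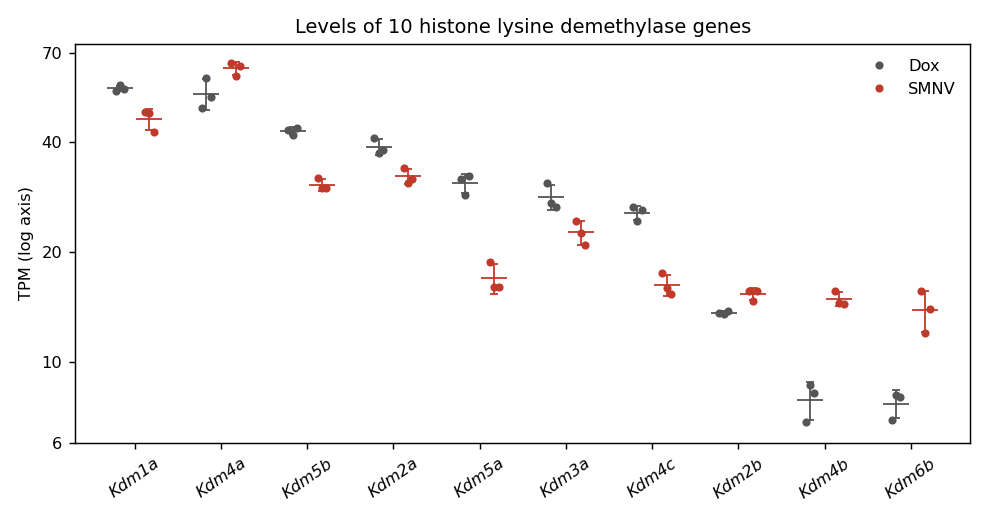
TPM of the 10 demethylase genes (log axis) in the 3 Dox and 3 SMNV libraries, with each library as a point and the mean and SD as a bar. Kdm4b and Kdm6b sit at 6.84 to 8.63 TPM in Dox and 12.04 to 15.61 in SMNV, next to Kdm2b, Kdm4c and Kdm5a.

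The promoters of the genes with the largest changes in each direction are shown to let their base composition be compared: Kdm4b and Kdm6b, which rose, and Kdm4c and Kdm5a, which fell. Each is the 250 bases before the gene's RefSeq start in the assembly GRCr8, on the gene's own strand, at chr9:1245653-1245902 (plus strand), chr10:54641015-54641264 (minus), chr5:93146787-93147036 (plus) and chr4:155237874-155238123 (plus). Capitals mark matches, on either strand, to any of 4 motifs. These were the GC box GGGCGG, the CCAAT box, the hypoxia response core with the letters ACGTG and the E-box with the letters CACGTG, which holds the hypoxia core on both strands.
Kdm4b: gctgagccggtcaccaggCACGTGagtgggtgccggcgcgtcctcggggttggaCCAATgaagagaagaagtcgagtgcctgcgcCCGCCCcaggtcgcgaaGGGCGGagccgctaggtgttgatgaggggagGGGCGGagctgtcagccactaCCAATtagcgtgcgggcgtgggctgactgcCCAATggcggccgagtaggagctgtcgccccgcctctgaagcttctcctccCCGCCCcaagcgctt
Kdm6b: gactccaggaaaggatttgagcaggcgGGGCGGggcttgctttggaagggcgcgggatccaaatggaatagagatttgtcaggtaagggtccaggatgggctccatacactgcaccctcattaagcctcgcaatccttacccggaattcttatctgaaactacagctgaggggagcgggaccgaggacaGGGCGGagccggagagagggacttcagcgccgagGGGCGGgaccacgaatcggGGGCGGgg
Kdm4c: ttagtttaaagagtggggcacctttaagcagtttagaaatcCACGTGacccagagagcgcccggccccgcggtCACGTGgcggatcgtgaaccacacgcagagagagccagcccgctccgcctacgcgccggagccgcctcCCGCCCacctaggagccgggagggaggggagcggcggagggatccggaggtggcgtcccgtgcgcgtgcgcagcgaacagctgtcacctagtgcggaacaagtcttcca
Kdm5a: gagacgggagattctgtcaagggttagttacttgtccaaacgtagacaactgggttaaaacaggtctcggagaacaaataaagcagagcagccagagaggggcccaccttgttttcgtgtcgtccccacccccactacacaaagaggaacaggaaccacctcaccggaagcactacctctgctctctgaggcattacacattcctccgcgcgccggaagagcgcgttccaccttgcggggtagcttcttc

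All 10 genes matched an entry of the RefSeq promoter table, Kdm3a with 2 starts. GC content of the 250 bases was 67.6% for Kdm4b, 60.4% for Kdm6b, 66.0% for Kdm4c and 54.4% for Kdm5a, against a median of 60.4% over tested genes with an entry. The E-box occurred in Kdm4b and Kdm4c among the 10 genes and in 8.39% of 9117 promoters of tested genes. Kdm4b and Kdm4c moved in opposite directions. The hypoxia core, searched as ACGTG only, occurred in Kdm1a, Kdm4b, Kdm4c and Kdm5b (22.7% of promoters). In Kdm4b and Kdm4c each match to these letters was part of an E-box. The CCAAT box occurred in 3 of the 10 genes (36.3%) and the GC box in 7 (60.1%), including risers and fallers. No window of the 10 genes matched the E2F motif TTTCCCGC, which 1.91% of promoters hold. None matched the cAMP response element TGACGTCA, which 3.04% hold. Across 9179 tested rows with a promoter the Spearman correlation of promoter GC content with log2 fold change was 0.01, given as a description.

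Kdm4b (ENSRNOG00000049221) encodes a demethylase of trimethylated H3K9 and H3K36. Its TPM was 6.84, 8.63 and 8.20 in Dox 1, 2 and 3 and 15.61, 14.52 and 14.43 in SMNV 1, 2 and 3. Every SMNV library was well above every Dox library, and the lowest value was in Dox 1. On the counts the gene rose 2.04-fold, a log2 fold change of 1.03 ± 0.10 (SE, n = 3 per group, edgeR adjusted p = 4.32e-07), and 90.3% of tested genes had a log2 change of that size or smaller in either direction. Kdm6b (ENSRNOG00000037613) encodes JMJD3, which removes the Polycomb mark H3K27me3. It stood at 6.92, 8.14 and 8.01 TPM in the Dox libraries and 15.60, 12.04 and 13.92 in the SMNV libraries. The groups were again apart, with SMNV 2 the lowest of its group. The log2 fold change was 0.98 ± 0.10 (SE, n = 3 per group, edgeR adjusted p = 1.03e-06), a 1.98-fold rise. In no fit without 1 library did the value for either gene leave the range of 0.92 to 1.10.

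Kdm5a and Kdm5b encode demethylases of trimethylated H3K4 that bind RB family proteins or act with SIN3 and other corepressors. Kdm5a (ENSRNOG00000010591) was at 31.68, 28.68 and 32.21 TPM in Dox and 18.79, 16.09 and 16.01 in SMNV. It had the largest fall among the 10 genes, a log2 fold change of -0.66 ± 0.07 (SE, n = 3 per group, edgeR adjusted p = 1.04e-06), which leaves 0.631 of the Dox level. Kdm5b (ENSRNOG00000060544) was at 43.16, 41.72 and 43.73 TPM in Dox and 31.82, 29.94 and 29.86 in SMNV, with little spread in either group. Its log2 fold change was -0.37 ± 0.06 (SE, edgeR adjusted p = 6.81e-05). Summed over these 2 genes alone, the level went from 73.7 ± 2.93 to 47.5 ± 2.69 TPM (SD, n = 3 per group). The sum leaves out Kdm5c and Kdm5d, which belong to the same subfamily. Kdm5c, named after its values were seen, did not pass on the counts (log2 fold change -0.05 ± 0.06, SE, edgeR adjusted p = 0.526). Its mean was 41.9 TPM in Dox and 32.5 TPM in SMNV, but 104.8 and 101.4 CPM (TMM-scaled). The TPM carry no scaling factor. The authors' counts and TPM also imply unequal gene lengths per group, with SMNV over Dox at 1.157 for Kdm5c and 1.065 for Kdm5a. The part of both in these TPM means and in the sum was not tested. Estimated counts of Kdm5a were not whole in 3 libraries and those of Kdm4c in 1.

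The KDM4 subfamily split by direction. Kdm4a (ENSRNOG00000019956), the most abundant of the trio and the founding member, stood at 49.64, 59.95 and 53.20 TPM in Dox and 65.60, 60.66 and 64.54 in SMNV. The groups did not overlap, but Dox 2 lay just under SMNV 2. Kdm4a rose by 0.33 ± 0.07 (log2 fold change, SE, edgeR adjusted p = 0.000969). Kdm4c (ENSRNOG00000006644), also called GASC1, an H3K9 demethylase gene, went the other way, from 26.53, 24.30 and 26.05 TPM in Dox to 17.47, 15.97 and 15.36 in SMNV. Its log2 fold change was -0.53 ± 0.08 (SE, edgeR adjusted p = 2.63e-05), and every SMNV library was below every Dox library. The summed TPM of the trio overlapped between the groups, at 83.0 to 92.9 in Dox and 91.2 to 98.7 in SMNV. These TPM carry no scaling factor, and on log2(TPM + 1) the median change of all tested genes was -0.10. On that scale Kdm4a changed by 0.23, against 0.35 after TMM scaling of the TPM. The sum was not computed after scaling, so a steady total of the trio is not shown. Its makeup differed. Kdm4c provided 26.2% to 32.0% of the sum in Dox and 16.3% to 17.7% in SMNV, and Kdm4b 8.24% to 9.38% and 15.3% to 15.9%.

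**Figure D2:**
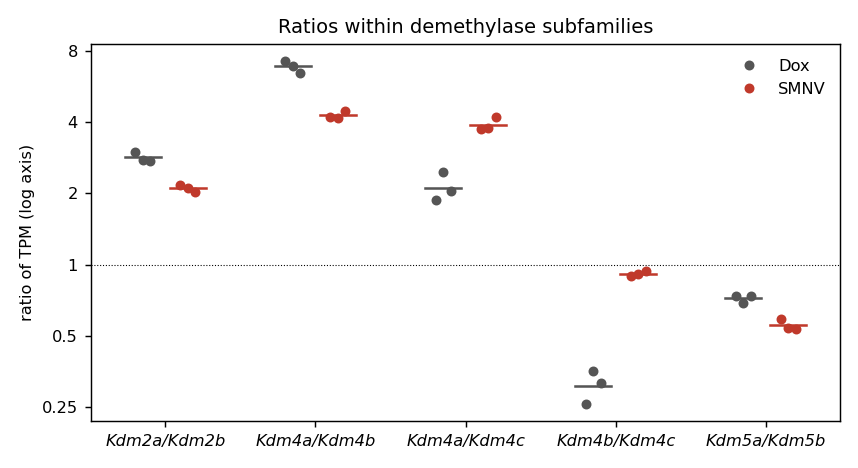
Ratio of the TPM of 2 genes of a subfamily in each library (log axis), with lines at the geometric mean of 3 libraries. The Kdm4b/Kdm4c ratio moves from 0.258 to 0.355 in Dox to 0.894 to 0.940 in SMNV, and the groups are apart for all 5 ratios.

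A ratio of 2 genes within a library does not depend on how libraries are scaled, so ratios were compared for 5 pairs within subfamilies. The Kdm4b/Kdm4c ratio of TPM was 0.258, 0.355 and 0.315 in the Dox libraries and 0.894, 0.909 and 0.940 in the SMNV libraries. The mean log2 ratio differed by 1.58, from -1.71 ± 0.23 to -0.13 ± 0.04 (SD, n = 3 per group). The Kdm4a/Kdm4c ratio was higher in SMNV by 0.89 on the log2 scale, and the Kdm4a/Kdm4b, Kdm2a/Kdm2b and Kdm5a/Kdm5b ratios were lower, with differences of -0.69, -0.43 and -0.38. In each of the 5 pairs the 3 ratios of one group lay outside those of the other. No background was computed for pairs, single genes lay apart in 67.3% of cases in TPM, and 3 of the 5 pairs combine the same 3 Kdm4 genes, so they are not separate observations. The exact two-sided permutation p was 0.1 for every pair and 0.1 adjusted over the 5, the smallest that 3 libraries against 3 can give, so no pair could pass 0.05. From the counts in place of TPM, the Kdm2a/Kdm2b difference was -0.37 and that of Kdm5a/Kdm5b -0.29.

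The other 4 genes changed by less. Kdm2b (ENSRNOG00000025702) encodes the CXXC zinc finger protein that brings a variant Polycomb complex to CpG islands, and its TPM was 13.65, 13.50 and 13.80 in Dox and 15.63, 14.65 and 15.68 in SMNV. Its log2 fold change was 0.20 ± 0.08 (SE, edgeR adjusted p = 0.0394). Kdm2a (ENSRNOG00000019145), its paralogue and an H3K36 demethylase, was at 40.91, 37.42 and 38.00 TPM in Dox and 33.92, 30.90 and 31.75 in SMNV, a log2 fold change of -0.17 ± 0.06 (adjusted p = 0.0257). Kdm1a (ENSRNOG00000022372), the LSD1 gene, was the most abundant of the 10 in Dox on average. It went from 55.25, 57.13 and 55.93 to 48.16, 47.94 and 42.58 TPM, with SMNV 3 the lowest, and its log2 fold change was -0.16 ± 0.07 (adjusted p = 0.0438). Kdm3a (ENSRNOG00000007814), an H3K9 demethylase gene that hypoxia is known to induce, was at 30.83, 27.28 and 26.63 TPM in Dox and 24.36, 22.60 and 20.95 in SMNV, a log2 fold change of -0.17 ± 0.07 (adjusted p = 0.0487). These were among the smaller changes in the table, since only 22.6% to 27.8% of tested genes had a change of that size or less.

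The calls of these 4 genes were lost when single libraries were left out of the edgeR fit. Kdm2b did not pass without Dox 1, Dox 2, Dox 3, SMNV 1 or SMNV 3 (adjusted p = 0.0782, 0.05365, 0.0867, 0.1005 and 0.0771). Kdm2a did not pass without Dox 1, Dox 3, SMNV 2 or SMNV 3 (0.0535, 0.0606, 0.116 and 0.105). Kdm1a did not pass without Dox 2, Dox 3, SMNV 1 or SMNV 3 (0.0985, 0.105, 0.0869 and 0.264). Kdm3a did not pass without Dox 1, Dox 2, SMNV 1, SMNV 2 or SMNV 3 (0.162, 0.0757, 0.0816, 0.134 and 0.163). By DESeq2, Kdm1a and Kdm3a did not pass (0.0652 and 0.0751). With limma on log2(TPM + 1), where no scaling factor was applied and the median of all tested genes moved to -0.10, the log2 changes of Kdm1a, Kdm2a and Kdm3a were larger, at -0.28, -0.26 and -0.31, and Kdm2b did not pass (0.16, adjusted p = 0.134, limma). After TMM scaling of the TPM these values were -0.15, -0.14, -0.19 and 0.27, and Kdm2b alone of the 4 passed. The direction of each of the 4 genes was the same in all 18 alternatives.

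**Figure D3:**
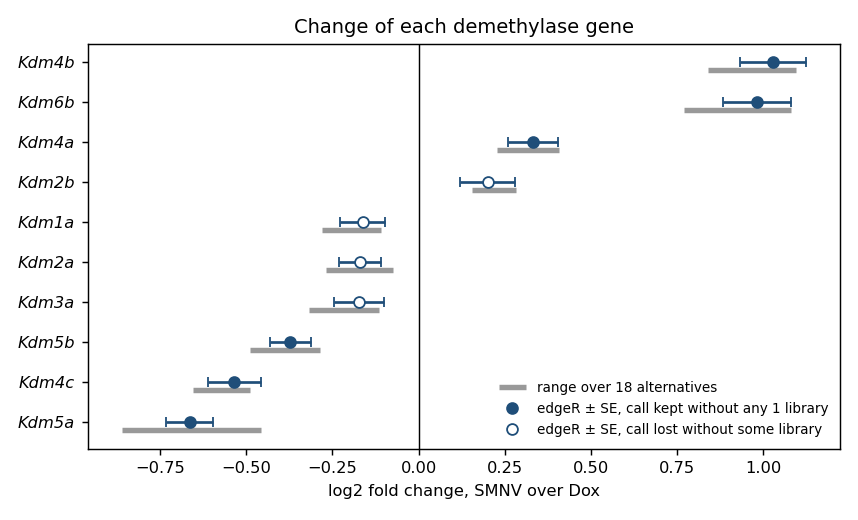
Log2 fold change of each gene in SMNV over Dox by edgeR with its SE (points), and the range over 18 alternative settings (grey bars). Open points mark the 4 genes whose call was lost when at least 1 library was left out, and no range crosses 0.

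The order of levels also differed. In Dox the 10 genes spanned from Kdm1a at 56.1 ± 0.952 TPM and Kdm4a at 54.3 ± 5.24, which overlapped, through Kdm5b, Kdm2a, Kdm5a, Kdm3a, Kdm4c and Kdm2b down to Kdm4b at 7.89 ± 0.934 and Kdm6b at 7.69 ± 0.670, which also overlapped (SD, n = 3). In SMNV Kdm4a was first at 63.6 ± 2.60 TPM and apart from Kdm1a at 46.2 ± 3.16, followed by Kdm2a, Kdm5b and Kdm3a. The last 5 places were taken by Kdm5a, Kdm4c, Kdm2b, Kdm4b and Kdm6b, between 16.96 ± 1.58 and 13.9 ± 1.78 TPM, and each overlapped its neighbour in the order. These 5 genes, grouped after their values were seen, differed by 3.52-fold to 4.63-fold from highest to lowest within a Dox library and by 1.15-fold to 1.34-fold within an SMNV library. Over all 10 genes the highest was 6.98 to 8.08 times the lowest in Dox and 4.21 to 5.04 times in SMNV. The summed TPM of the 10 genes was 305 to 307 in Dox and 265 to 287 in SMNV. These TPM carry no scaling factor, and on log2(TPM + 1) the median change of all tested genes was -0.10. The part of this shift in the sum was not tested. Kdm4b and Kdm6b together made up 4.51% to 5.47% of the sum in Dox and 10.0% to 10.9% in SMNV.

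Within each group the libraries were not equally far from the other group. For 8 of the 10 genes Dox 1 was the Dox library farthest from the SMNV mean on the log2 CPM scale, as it was for 67.1% of all 7614 changed genes. SMNV 3 was the SMNV library farthest from the Dox mean for 6 of the 10 genes, and for 48.8% of changed genes. The 10 genes have long transcripts: 8 of them were in the longest of 5 equal classes of tested genes (4432 bases or more in the authors' length column), where 24.1% of genes rose and 42.5% fell, against 36.04% and 18.2% in the shortest class. The part of length in the changes was not tested beyond the fit that follows. Of these 8, 4 rose and 4 fell. With the trend of counts on gene length removed from each library, Kdm5a had a log2 fold change of -0.46 and Kdm4b and Kdm6b of 1.07 and 1.04, and Kdm2a, at -0.07, and Kdm3a, at -0.13, did not pass (adjusted p = 0.295 and 0.122).

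**Figure D4:**
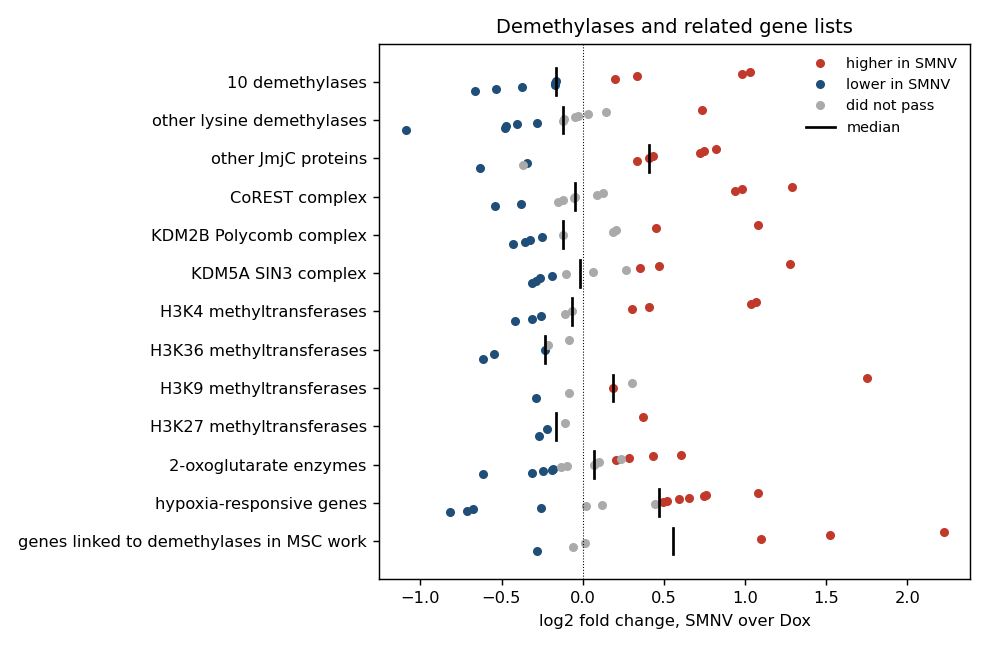
Log2 fold change in SMNV over Dox of each tested gene, by list, coloured by the edgeR call, with a black line at the list's median. Genes higher and lower appear together in every list except the H3K36 methyltransferases, where 3 of 5 were lower and none higher. Of all tested genes 29.9% were lower and 30.5% higher.

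A further 14 lysine demethylase genes were listed. Among the 12 that were tested there was 1 riser, against 5 that fell and 6 that missed the threshold, and the median log2 fold change was -0.12. Phf2, an H3K9 demethylase gene, rose by 0.74 ± 0.07 (log2 fold change, SE), from 17.99 to 27.9 TPM. Kdm7a, which acts on H3K9 and H3K27, had a log2 fold change of -1.09 ± 0.12 at low levels (5.75 to 2.44 TPM), and Kdm5d, the Y-linked H3K4 demethylase, of -0.48 ± 0.07. Kdm6a, the X-linked counterpart of Kdm6b, was at 15.22, 12.06 and 12.03 TPM in Dox and 9.39, 8.29 and 8.47 in SMNV, a log2 fold change of -0.48 ± 0.10 (edgeR adjusted p = 0.000881). Uty, its Y-linked homologue, and Jmjd1c, of the KDM3 subfamily, were named after their values were seen and had log2 fold changes of -0.41 ± 0.09 and -0.28 ± 0.07. Kdm6b thus rose where Kdm6a and Uty fell: the 3 genes summed to 32.4 ± 2.12 TPM in Dox and 30.8 ± 3.23 in SMNV (SD, n = 3 per group), with overlapping libraries, and Kdm6b took 19.9% to 26.1% of that sum in Dox and 43.0% to 46.4% in SMNV. Kdm4d and Hr were too low to be tested, with a maximum of 0.686 and 1.02 CPM (without TMM scaling) in any library.

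Among 9 tested JmjC genes outside the lysine demethylases, 6 rose, 2 fell and 1 missed the threshold, and the median was 0.41. In the shortest length class 36.04% of tested genes rose and 18.2% fell. It holds the risers Jmjd4, Jmjd7 and Hspbap1, the faller Hif1an, and Tyw5, which did not pass. Jmjd4, Jmjd7 and Jmjd8 were low, at 1.61, 2.70 and 5.59 CPM in Dox, and the CPM of Jmjd4 overlapped between the groups. Jmjd4, Jmjd7, Jmjd8 and Tyw5 were named after their values were seen. Hspbap1 rose by 0.75 ± 0.15 and Jmjd6, a lysyl hydroxylase gene, by 0.43 ± 0.12. Riox2, a ribosomal oxygenase gene, fell with a log2 fold change of -0.63 ± 0.15. Hif1an, which hydroxylates the hypoxia factor HIF1A, had -0.34 ± 0.08, and after TMM scaling of the TPM -0.04 (adjusted p = 0.728, limma). Jmjd6 did not pass on TPM values (0.22, adjusted p = 0.0801, limma).

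Partners of the demethylases did not move as blocks. In the CoREST complex of LSD1, 3 of 11 tested genes rose and 2 fell (median -0.05). The corepressor gene Rcor2 rose by 1.29 ± 0.16 from 3.69 TPM, the HMG protein gene Hmg20b by 0.98 ± 0.13 and Gse1 by 0.94 ± 0.17, while the zinc finger gene Zmym2 had a log2 fold change of -0.54 ± 0.07. In the KDM2B Polycomb complex 2 of 9 rose and 4 fell (median -0.12): Ring1, an E3 ligase of H2A, rose by 1.08 ± 0.11, while the related ligase gene Rnf2 had -0.36 ± 0.07, the adaptor Skp1 -0.43 ± 0.07 and the deubiquitinase Usp7 -0.32 ± 0.06. Among SIN3 complex genes known as KDM5A partners, 3 of 10 rose and 4 fell (median -0.02). The PHD finger gene Phf12 rose by 0.47 ± 0.08 and Morf4l1 had -0.31 ± 0.06. Sap18, of which the list holds the more abundant row, has 2 rows with opposite changes, 1.28 ± 0.11 at 23.1 CPM in Dox and -0.40 ± 0.12 at 10.5 CPM. Sin3b, at 0.35 ± 0.06 on the counts, turned to -0.18 on TPM values (adjusted p = 0.0263, limma) and to -0.07 with offsets for the per-library gene lengths implied by the authors' 2 tables (adjusted p = 0.372).

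The enzymes that write the same marks, with some subunits of their complexes, were compared as the counterpart. Of 9 tested genes of H3K4 methyltransferases and their subunits, 4 rose and 3 fell (median -0.07), while the KDM5 pair fell. The subunit genes were Ash2l, Wdr5 and Rbbp5, named after their values were seen. Of these Rbbp5 fell, with -0.31 ± 0.08, and Ash2l and Wdr5 did not pass. Setd1b and Kmt2b rose by 1.07 ± 0.11 and 1.04 ± 0.09 and Kmt2d by 0.41 ± 0.07, and Kmt2c had -0.42 ± 0.09. Kmt2d did not pass on unfiltered TPM (0.27, adjusted p = 0.0542, limma). Of 5 H3K36 methyltransferase genes 3 fell and none rose (median -0.23), with Nsd1 at -0.61 ± 0.08 and Ash1l at -0.55 ± 0.08. These genes, of 4599 to 12592 bases, lie in the longest length class, where 42.5% of tested genes fell and 24.1% rose. Setd2, at -0.23 ± 0.07, did not pass without SMNV 3 (adjusted p = 0.0676), nor with the gene length trend removed (-0.11, adjusted p = 0.125). Nsd3, at -0.21 ± 0.10, did not pass (adjusted p = 0.0754) but did without SMNV 1 (0.0189), on TPM values (-0.35, 0.0179, limma) and with length offsets (-0.25, 0.0374). Of 5 tested H3K9 methyltransferase genes 2 rose and 1 fell (median 0.19). Ehmt2, encoding G9a, went from 14.1 to 44.7 TPM, the largest change in these lists after Cdkn2a. Ehmt1, its partner, was at 0.19 ± 0.06 and lost its call on TPM values (0.07, adjusted p = 0.414, limma) and when Dox 3 (0.0678) or SMNV 2 (0.0542) was left out, and Suv39h2 did not pass (0.30 ± 0.17). Setdb2, at -0.29 ± 0.11, did not pass without Dox 2 (0.0548), Dox 3 (0.0660), SMNV 1 (0.107) or SMNV 3 (0.0992), nor by DESeq2 (0.0557) or without a filter on low counts (0.0578). For H3K27, 1 of 4 Polycomb genes rose and 2 fell (median -0.16): Ezh2 was higher by 0.37 ± 0.07, and Eed, at -0.11 ± 0.08, did not pass on the counts. Eed passed on TPM values (-0.30, adjusted p = 0.00339, limma), on TMM-scaled TPM (-0.18, 0.0460) and with the gene length trend removed (-0.20, 0.0349). Suz12 (-0.27 ± 0.09) did not pass without Dox 1 (0.0622), Dox 3 (0.0518) or SMNV 3 (0.0719), nor on TMM-scaled TPM (0.0584, limma), and Ezh1 (-0.22 ± 0.07) did not pass without Dox 3 (0.0553), SMNV 1 (0.0779) or SMNV 3 (0.0584).

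JmjC enzymes use 2-oxoglutarate, and of 15 tested genes of its supply and of competing acids 4 rose and 5 fell (median 0.07). The mitochondrial isocitrate dehydrogenase gene Idh2 rose by 0.61 ± 0.06 and the serine pathway gene Psat1 by 0.43 ± 0.06. Glud1, encoding glutamate dehydrogenase, had -0.62 ± 0.06 and Idh3a -0.31 ± 0.07. Several JmjC genes, Kdm3a and Kdm4b among them, are known hypoxia targets in other cells. Of 14 tested hypoxia-responsive genes 7 rose and 4 fell (median 0.47), and the list was split: the oxygen sensor gene Egln1 rose by 0.76 ± 0.09 and Ndrg1 by 0.59 ± 0.06, while the glycolytic genes Pgk1 and Ldha fell, with -0.71 ± 0.06 and -0.67 ± 0.06. Kdm3a and Kdm4b themselves lay on opposite sides of 0.

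Of 8 genes tied to demethylases in studies of stem cell differentiation and senescence, 6 were tested, 3 rose and 1 fell (median 0.56). The list holds the HOX genes Hoxc10 and Hoxc6, both tied to demethylases in work on mesenchymal stem cells. On the counts they moved in opposite directions. Rat Hoxc10 was at 12.69, 13.38 and 12.27 TPM in Dox and 26.11, 23.57 and 25.84 in SMNV, a log2 fold change of 1.10 ± 0.10 (edgeR adjusted p = 2.33e-07). Hoxc6, at -0.28 ± 0.09, did not pass without Dox 3 (0.0967), SMNV 2 (0.0977) or SMNV 3 (0.0550), nor on TPM values (-0.14, adjusted p = 0.428, limma), with length offsets (-0.04, 0.816) or with the length trend removed (-0.12, 0.219). Cdkn2a, the p16 locus, rose by 2.22 ± 0.33 from a low level, with 3.31, 3.03 and 1.23 TPM in Dox and 11.47, 7.83 and 12.12 in SMNV. Its gene row does not tell transcripts of the locus apart, so a rise of p16 itself is not shown. The bone alkaline phosphatase gene Alpl rose by 1.53 ± 0.11. Runx2 and Cdkn2b, named after their values were seen, did not pass. Their log2 fold changes were -0.06 ± 0.07 and 0.02 ± 0.10 (SE, edgeR adjusted p = 0.503 and 0.890). DLX5 is a KDM4B target in human cells, and its rat gene Dlx5 had no count in any library. Sp7, an osteoblast factor gene, reached at most 0.101 CPM (without TMM scaling) and was not tested.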

How the data were processed

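Rat mesenchymal stem cells were profiled in 6 poly(A) RNA-seq libraries. The authors deposited 2 tables: estimated counts per gene, not normalized (17.9% to 18.8% of values above 0 are not whole), and TPM as the authors computed them, per the file headers and values. Tools named in the submitters' processing notes are fastp, HISAT2 and HTSeq, with the build mRatBN7.2. How the estimated counts were made, the annotation release and strandedness were not stated, so reads of a gene and an antisense partner cannot be told apart.

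Estimated counts were rounded. The design assumed counts, and its test was kept. Rows passing filterByExpr (12614 of 30560) were scaled with TMM and fitted with edgeR 4.0.16 (R 4.3.3; glmQLFit, glmQLFTest, group as the only term, two-sided, Benjamini-Hochberg over all tested genes, threshold 0.05). SE is the absolute log2 fold change over the square root of F, and CPM in comparisons are TMM-scaled. A positive value is higher in SMNV, and rose or fell is used for genes past the threshold. Alternatives used DESeq2 1.42.0, limma 3.58.1 on log2(TPM + 1) or log2(TPM + 0.1), other scalings, filters, length offsets, a replicate block and leaving out each library; a fold change on the log2(TPM + pseudocount) scale understates low genes. Ratios were tested with scipy 1.17.1. The fit was tested on simulated data.

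Members and lists were chosen with earlier results of these data known. Besides the 10 genes, the text names up to 4 tested genes per list with the smallest p. Symbols missing from a row were taken through its Entrez number from a RefSeq table of GRCr8, which also gave the promoters. One listed haematopoietic marker is not reported here.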

Additional observations from a re-analysis of the deposited data

How the results depend on the processing

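All 18 alternatives kept the direction of each of the 10 demethylase genes. Kdm4b, Kdm6b, Kdm4c, Kdm5a and Kdm5b passed in all 18, and Kdm4a in 17; on unfiltered TPM values it did not (0.23, adjusted p = 0.0549, limma). In place of 4 higher and 6 lower, the unfiltered TPM gave 2 higher. Only 3 were lower with no filter on the counts and with TMM-scaled TPM. Without 1 library, 3 to 4 of the 10 were higher and 3 to 4 lower, and 6635 to 7454 of all genes changed, where all 6 libraries gave 7614. On unscaled TPM 39.8% of changed genes were higher in place of 50.4%. The Kdm2a/Kdm2b and Kdm5a/Kdm5b differences were -0.37 and -0.29 from CPM (-0.43 and -0.38 from TPM); for these pairs the 2 tables imply unequal gene lengths per group, with SMNV over Dox at 0.949 for Kdm2b and 1.065 for Kdm5a. Leaving out 1 library, the 5 differences ranged from -0.46 to -0.40 (Kdm2a/Kdm2b), -0.73 to -0.65 (Kdm4a/Kdm4b), 0.80 to 1.001 (Kdm4a/Kdm4c), 1.45 to 1.68 (Kdm4b/Kdm4c) and -0.42 to -0.35 (Kdm5a/Kdm5b). Sin3b reversed on TPM values (-0.1822, -0.1835 with the smaller pseudocount, -0.1822 unfiltered, -0.0570 TMM-scaled) and with recovered length offsets (-0.0677). The gene length that the 2 tables imply for Sin3b was 1.343 in SMNV over Dox. The cause of the reversal was not tested. Of 863 other results for the named genes outside the 10, 40 lost a call, 2 of them for Sin3b, and 10 gained one.

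No pairing by replicate number was visible. Deviations of same-numbered libraries from their group means correlated at 0.00764, -0.116 and 0.00165, and Dox 1 correlated best with SMNV 2 (0.118). With 3 libraries per group, these values cannot show whether same-numbered libraries share a culture or a batch. With a replicate block 7387 genes changed, and 3 of the 10 demethylase genes were higher and 4 lower. Kdm1a, Kdm2a, Kdm2b and Kdm3a, with absolute log2 changes of up to 0.20, kept their calls in 8, 11, 8 and 5 of the 18 alternatives.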
